A study of Mus musculus with 36 samples.

Results

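Forkhead box (Fox) genes encode transcription factors that share a forkhead, or winged-helix, DNA-binding domain. The genes described here were all protein-coding autosomal genes of the GENCODE annotation on mm10 whose symbol is Fox followed by a letter from a to s and a number, which gave 41 genes of 20807 protein-coding autosomal genes. Whole pancreas was examined by ChIP-Seq for trimethylation of lysine 27 (K27me3) and lysine 4 (K4me3) of histone H3 in 12 mice, 22 days after tamoxifen gavage of mice 2 to 4 months old. The control mice are labeled Wildtype, and the study used C57BL/6 mice or mice with the Mist1creERT allele alone as controls. The EZH2ΔSET mice carried Mist1creERT/+ and were homozygous for an Ezh2 allele without the SET domain, the methyltransferase part of EZH2. There were 3 control and 3 EZH2ΔSET mice, whose values are given by mouse. The other 6 mice, of other genotypes, are given only by their Ezh2 status, 3 with intact Ezh2 and 3 homozygous for the same Ezh2 allele. All 12 mice received tamoxifen. Cre was expressed from the Mist1 locus and so acted in acinar cells, while duct, islet, stromal, vascular and immune cells in the same chromatin kept intact EZH2.

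K27me3 is the product of Polycomb repressive complex 2, whose catalytic subunit is EZH2, and is known for marking silent developmental genes, while K4me3 marks the starts of active or activatable genes. Promoters with both marks are called bivalent or primed. The Fox family spans both kinds of gene: FoxA factors are pioneer factors of pancreas and liver, FoxO factors carry insulin and growth factor signaling to the nucleus, and many other members act only in particular embryonic tissues such as brain, neural crest, eye, kidney stroma or gut mesenchyme.

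A mark was called at a gene in a mouse when a peak touched a window of 3 kb on either side of any annotated transcription start site (TSS), and covered length was the number of bases of this window under a peak. Peak lists without heights were given, so depth was unknown, and autosomal peaks numbered 15782 to 29041 per mouse for K27me3 and 16912 to 25433 for K4me3. Control mouse 2 stood apart with the fewest peaks of both marks, and yet 22.9% of all genes had K27me3 there against 9.03% to 16.1% in the other 11 mice. A second library that stood apart, from 1 of the other mice with intact Ezh2, was next at 16.1%, and 4.39% of its K27me3 peaks touched a K4me3 peak, against 11.7% in control mouse 2 and 0.693% to 2.57% in the remaining mice. K27me3 peaks on chromosome X numbered 10 to 35 in EZH2ΔSET mouse 2 and in the 3 other mice with intact Ezh2, and 5637 to 7367 in the remaining 8 mice. The labels give no sex, and since this split takes in 3 of 6 mice with intact Ezh2 and 1 of 6 with the deletion, its part in the comparisons by Ezh2 status was not tested beyond values within these 8 mice, given for Foxi3 and Foxd1. K4me3 was called at all 14 acinar marker genes found in the annotation in every mouse, at no marker of skeletal muscle or brain in any mouse, and at 5 to 8 of 8 duct, 2 to 4 of 10 islet, 3 to 6 of 8 mesenchyme, 1 to 3 of 5 endothelium and 1 to 5 of 8 leukocyte markers. Of the 10 islet markers, Ins1, Ins2, Gcg, Sst, Iapp and Chga had no K4me3 in any mouse, Ppy had it in 1, Neurod1 in 11 and Pax6 and Isl1 in 12. Fewer cells of a type and less of a mark per cell cannot be told apart in whole tissue.

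Promoter sequences of 4 members are shown as examples of the mark classes, since their CpG content is described next. Foxa3 had K4me3 alone, Foxd3 K27me3 alone and Foxa1 and Foxd2 both marks. A RefSeq promoter was found for 26 of the 41 members, and each sequence runs from 250 bases before to 50 bases after a start site on GRCm38.p6, with every CpG dinucleotide in capitals. The windows are Foxa3 at chr7:19023490-19023789 (minus strand), Foxd3 at chr4:99656049-99656348 (plus strand), Foxa1 at chr12:57546062-57546361 (minus strand) and Foxd2 at chr4:114908849-114909148 (minus strand).
Foxa3: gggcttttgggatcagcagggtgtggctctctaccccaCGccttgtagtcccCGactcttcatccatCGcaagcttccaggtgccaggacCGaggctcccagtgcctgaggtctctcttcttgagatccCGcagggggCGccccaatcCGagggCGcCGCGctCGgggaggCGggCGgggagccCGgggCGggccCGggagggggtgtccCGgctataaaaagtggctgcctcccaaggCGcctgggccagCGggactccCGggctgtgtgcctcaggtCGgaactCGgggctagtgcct
Foxd3: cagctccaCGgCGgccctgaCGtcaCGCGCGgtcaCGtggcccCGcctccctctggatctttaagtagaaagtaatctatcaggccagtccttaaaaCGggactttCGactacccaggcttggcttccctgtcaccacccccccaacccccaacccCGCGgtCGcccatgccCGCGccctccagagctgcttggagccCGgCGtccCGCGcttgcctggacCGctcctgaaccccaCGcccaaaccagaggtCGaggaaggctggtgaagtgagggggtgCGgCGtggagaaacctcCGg
Foxa1: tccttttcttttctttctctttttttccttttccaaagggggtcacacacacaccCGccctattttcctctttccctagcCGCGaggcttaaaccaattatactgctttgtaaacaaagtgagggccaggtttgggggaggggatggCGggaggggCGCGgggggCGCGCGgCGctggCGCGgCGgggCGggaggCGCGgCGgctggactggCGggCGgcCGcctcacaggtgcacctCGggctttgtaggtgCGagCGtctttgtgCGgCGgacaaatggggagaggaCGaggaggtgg
Foxd2: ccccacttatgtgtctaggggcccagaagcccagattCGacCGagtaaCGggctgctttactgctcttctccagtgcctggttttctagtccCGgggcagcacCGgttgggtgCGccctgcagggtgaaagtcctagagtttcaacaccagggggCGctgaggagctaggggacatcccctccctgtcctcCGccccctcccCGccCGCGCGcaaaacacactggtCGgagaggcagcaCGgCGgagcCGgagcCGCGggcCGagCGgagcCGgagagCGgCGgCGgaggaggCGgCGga

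The Foxa3 stretch holds 22 CpG dinucleotides, Foxd3 holds 25, and Foxa1 and Foxd2 hold 26 each. Over 1 kb centered on the 5′ end of each gene, read from the GRCm38 genome for all 41 members, the median was 76 CpG, against 43 over all protein-coding autosomal genes. The ratio of observed to expected CpG was 0.6 or more in 29 of 41 Fox genes (70.7%) and in 47.2% of all genes. It was so in 9 of the 13 Fox genes with K27me3 in at least 10 mice and in 19 of the 25 with K4me3 in at least 10 mice, groups that share 4 genes. The letters TGTTTAC, a core forkhead recognition motif, or their reverse complement GTAAACA occurred in the 1 kb window of 3 Fox genes, Foxo1, Foxp1 and Foxp2, or 7.32%, against 9.40% of all genes. The Foxa1 stretch printed above, which holds GTAAACA before its CpG-rich part, surrounds a start 805 bp from the gene's 5′ end and so lies apart from the 1 kb window, where Foxa1 had 36 CpG and no match.

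**Figure D1:**
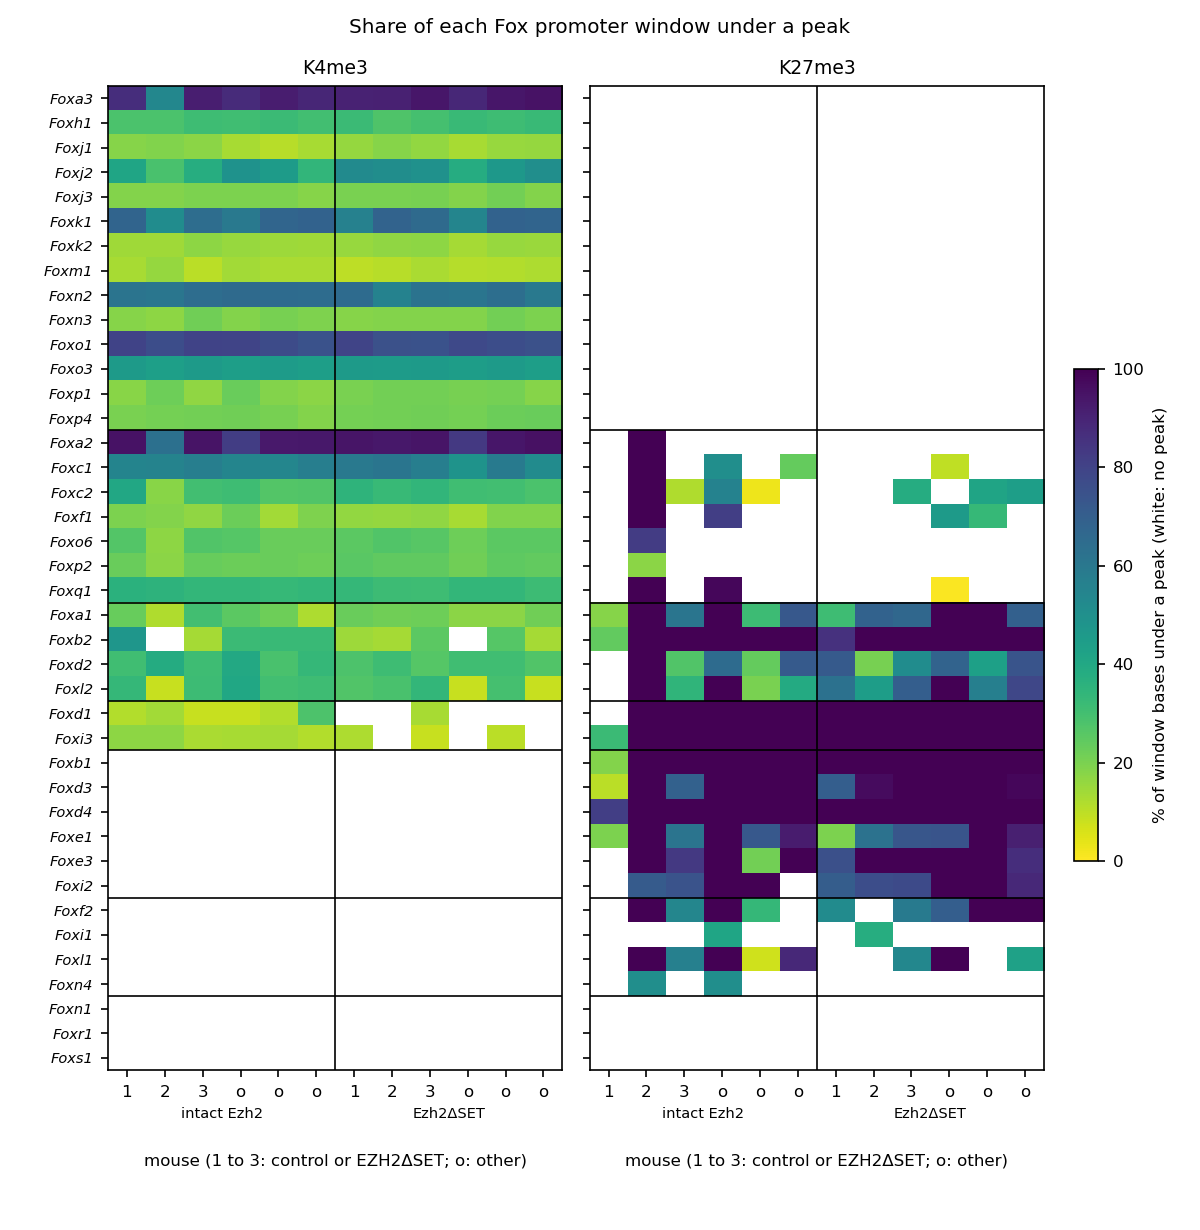
Share of each promoter window under a K4me3 (left) or K27me3 (right) peak for 40 of the 41 Fox genes (rows, grouped by the mice in which each mark was called) in the 12 mice (columns, 6 with intact Ezh2 and 6 with the Ezh2 deletion; 1 to 3 are control or EZH2ΔSET mice and o are the other mice); white is no peak. The 14 genes at the top had K4me3 in all 12 mice and K27me3 in none, and control mouse 1 had K27me3 at the fewest genes.

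The Fox promoters fell into classes by the marks called, most of them shared by mice with and without the Ezh2 deletion. K4me3 was called at 25 of 41 Fox genes in at least 10 mice (background over all genes 61.5%), and K27me3 at 13 of 41 in at least 10 mice (background 6.95%). Both marks were called in the same mouse at 4 of 41 in at least 10 mice (background 1.46%). K4me3 with no K27me3 in any mouse was found at 14 members, or 34.1% (background 48.2%), and K27me3 in at least 10 mice with no K4me3 in any mouse at 7 members, or 17.1% (background 4.38%). Neither mark was called in any mouse at 3 members (background 15.4%).

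The class with K4me3 alone in every mouse held Foxa3, Foxh1, Foxj1, Foxj2, Foxj3, Foxk1, Foxk2, Foxm1, Foxn2, Foxn3, Foxo1, Foxo3, Foxp1 and Foxp4. In this class the nearest K27me3 peak to a TSS lay at a median distance between 84723 bp (Foxj2) and 782678 bp (Foxh1). The shortest such distance in any mouse was 5276 bp, at Foxn2 in control mouse 2. In 4 cases the window also holds the start of another protein-coding gene, so that their K4me3 cannot be assigned to the Fox gene alone: Sympk at Foxa3, Ppp1r16a at Foxh1, Frg2f1 at Foxj3 and Rhno1 at Foxm1. At Foxh1, the SMAD partner of Nodal signaling, no K4me3 peak reached the start, and the nearest lay 908 to 1140 bp from it. Foxj3 also had no K4me3 at its 5′-most start, where K4me3 lay at other annotated starts.

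Foxo1 and Foxo3, the FoxO factors restrained by AKT phosphorylation, had steady and wide K4me3. At Foxo1 (chr3:52268336-52353221), K4me3 covered 4789, 4594 and 4798 bp of the 6001 bp window in control mice 1 to 3 and 4762, 4502 and 4486 bp in EZH2ΔSET mice, with 4492 to 4762 bp in the other 6. The groups overlapped. At Foxo3 (chr10:42181841-42276755), with 5 annotated starts, the values were 5468, 5255 and 5486 bp in control, 5475, 5465 and 5484 bp in EZH2ΔSET and 5289 to 5496 bp in the other 6 mice. These too overlapped. The widest K4me3 region reaching the Foxo3 window was instead either 5685 to 6219 bp, in 7 mice, or 10504 to 11669 bp, in 5 mice, with no mouse between. The wide form was present in 4 of 6 mice with the Ezh2 deletion, EZH2ΔSET mice 2 and 3 among them, in 1 of 6 with intact Ezh2 and in no control mouse. This split was seen afterwards at a single gene and was not tested, and how often all genes split so was not counted. Covered length at Foxo3, the measure tested, gave an exact permutation p of 0.27 by Ezh2 status. Foxo6, the third autosomal FoxO gene, had a narrower K4me3 region (median 1516 bp) in every mouse and K27me3 in control mouse 2 alone.

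Foxm1, a driver of the mitotic gene program, had K4me3 over 1808, 2207 and 1469 bp in control, 1374, 1477 and 1762 bp in EZH2ΔSET and 1580 to 1929 bp in the other 6 mice. Its control mice spanned nearly the whole range. Foxp1, a lymphoid and lung factor with 22 annotated starts, had 12341, 15311 and 11560 bp in control, 14107, 14805 and 14897 bp in EZH2ΔSET and 12075 to 15867 bp in the other 6 mice. Control mouse 2 was above the EZH2ΔSET mice there and the other control mice below them.

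The FoxA genes, which open chromatin for the endodermal program, had 3 different patterns. Foxa2 (chr2:148042877-148046969) carried the broadest K4me3 of the family. K4me3 covered 7132, 4749 and 7097 bp of its 7506 bp window in control, 7074, 7010 and 7085 bp in EZH2ΔSET and 6143 to 7170 bp in the other 6 mice. The low value was control mouse 2. The other control mice lay just above the EZH2ΔSET mice, and control mouse 2 below them. The widest region reaching the window had a median of 14635 bp over the 12 mice, wider than at 99.9% of genes with K4me3, and 3788 bp in control mouse 2. K27me3 covered the whole Foxa2 window in control mouse 2 and was called in no other mouse, the nearest K27me3 peak lying 5563 bp away in the second library that stood apart and 43497 bp or more in the other 10.

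Foxa3 (chr7:19013284-19023538), the FoxA gene linked to liver metabolism, had no K27me3 in its window. K4me3 there covered 5219, 3223 and 5494 bp in control, 5417, 5446 and 5649 bp in EZH2ΔSET and 5268 to 5704 bp in the other 6 mice. Apart from control mouse 2, all mice lay between 5219 and 5704 bp. Foxa1 (chr12:57540628-57546916), by contrast, had both marks in every mouse. K27me3 covered 1222, 6796 and 4143 bp of its 6796 bp window in control, 2106, 4662 and 4524 bp in EZH2ΔSET and 2130 to 6796 bp in the other 6 mice. The mice of each genotype spread widely and overlapped. K4me3 at Foxa1 was narrow, with 1589, 814 and 2067 bp in control, 1562, 1482 and 1508 bp in EZH2ΔSET and 836 to 1702 bp in the other 6 mice. The 2 marks lay over the same bases in 11 of 12 mice, over a median of 664 bp.

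**Figure D2:**
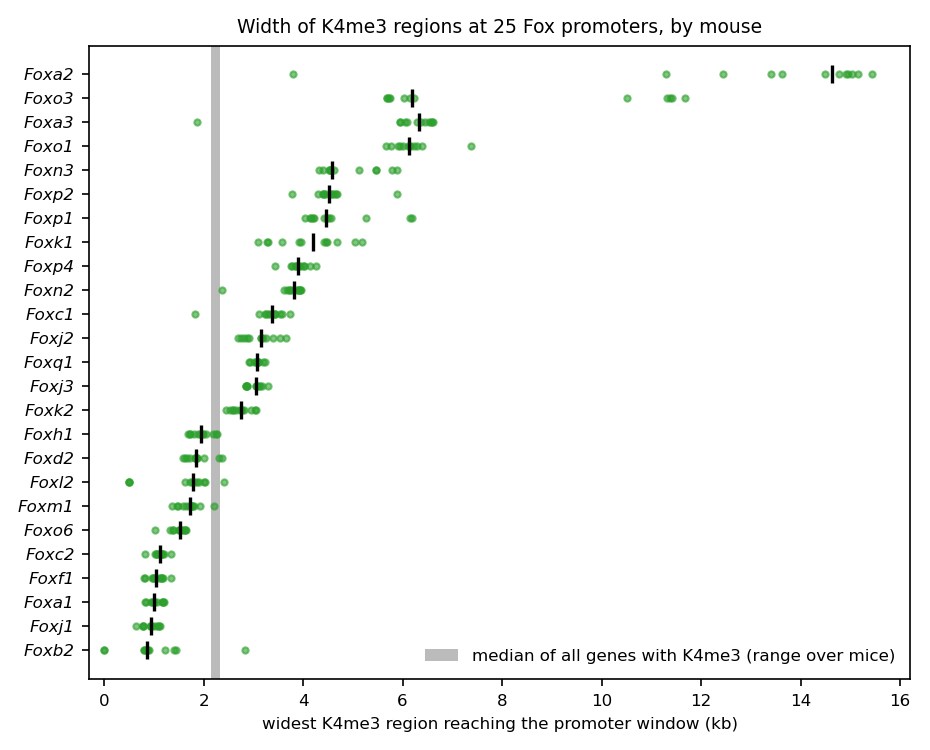
Width in kb of the widest K4me3 region that reaches the promoter window (x axis) for the 25 Fox genes with K4me3 in at least 10 mice (y axis); each point is a mouse, black ticks are medians over 12 mice, 0 is no region, and the gray band is the range over mice of the median of all genes with K4me3. Foxa2 had the widest median, 14635 bp, and Foxb2 the narrowest, 871 bp, against 2139 to 2323 bp over all genes.

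The width of K4me3 varied within each mark class. Of the 25 members with K4me3 in at least 10 mice, the 4 with both marks, Foxa1, Foxb2, Foxd2 and Foxl2, had median widths of 871 to 1838 bp, below the all-gene medians of 2139 to 2323 bp. Median widths among the 14 members with K4me3 alone ran from 945 bp at Foxj1, the master gene of motile cilia, to 6323 bp at Foxa3, and 11 of them were above 2323 bp. The 3 exceptions were Foxj1, Foxh1 and Foxm1, and Foxj1 and Foxm1 (1732 bp) lay within the range of the 4. The 7 members with K4me3 in every mouse and K27me3 in 1 to 9 mice spanned both, from 1053 bp at Foxf1, 1115 bp at Foxc2 and 1516 bp at Foxo6 to 3072 bp at Foxq1, 3376 bp at Foxc1, 4512 bp at Foxp2 and 14635 bp at Foxa2. Since each call of K27me3 and each K4me3 width came from the same mice, these are descriptions without a test.

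The other genes with both marks were Foxb2, Foxd2 and Foxl2, the last a factor of ovarian granulosa cells. The marks lay over the same bases in 9 mice at Foxb2, 9 at Foxl2 and 6 at Foxd2, over medians of 852.5, 449.5 and 151.5 bp. The 5′ end of Foxd2 lay under K27me3 in 1 mouse and under K4me3 in 12. Whether both marks were in the same cells cannot be told from whole tissue. At Foxl2 (chr9:98955288-98958543) K4me3 covered 2011, 501 and 1898 bp in control, 1620, 1733 and 2029 bp in EZH2ΔSET and 501 to 2417 bp in the other 6 mice. The groups overlapped, and 501 bp, the value of control mouse 2, is the narrowest K4me3 peak in every library. K27me3 at Foxl2 covered 0, 6001 and 2066 bp in control, 3762, 2650 and 4206 bp in EZH2ΔSET and 1208 to 6001 bp in the other 6 mice. At Foxb2, K4me3 covered 2840, 0 and 805 bp in control, 887, 808 and 1504 bp in EZH2ΔSET and 0 to 1943 bp in the other 6 mice. The control mice spanned the whole range at Foxb2, from no peak to the highest value.

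The longest stretches under both marks in a mouse were at Foxa2 (4749 bp), Foxc1 (3328 bp), Foxp2 (3050 bp), Foxl2 (2417 bp) and Foxd2 (2308 bp). All were in control mouse 2 except that of Foxl2, in the second library that stood apart. Over the other 10 mice both marks were called at 10 Fox genes in any mouse, against 13 over all 12.

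Foxd1 and Foxi3 had K27me3 over almost the whole window and K4me3 in part of the mice. Foxd1, a gene of kidney stromal progenitors, had K27me3 over all 6001 bp in 11 mice and none in control mouse 1. Foxi3, a gene of ectodermal placodes, had K27me3 over all 6076 bp in 11 mice and over 1938 bp in control mouse 1. Their K4me3 is given with the genotype comparisons below.

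K27me3 without K4me3 marked 7 members, among them Foxb1 (hypothalamus), Foxd3 (neural crest), Foxd4, Foxe1 (thyroid), Foxe3 (lens) and Foxi2. The nearest K4me3 peak to a start lay 7607 bp away or more in each of the 7 in every mouse. The K27me3 regions reaching these windows were broad, with medians from 11153 bp at Foxe1 to 36354 bp at Foxb1, while the narrowest K27me3 peak in every library was 5001 bp. Foxd4 had K27me3 over 4886 bp in control mouse 1 and over all 6001 bp in the other 11 mice. Control mouse 1 was also the lowest or tied for the lowest at the rest of these genes.

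Foxi2 had K27me3 over 0, 4280 and 4460 bp in control, 4222, 4589 and 4656 bp in EZH2ΔSET and 0 to 6001 bp in the other 6 mice, 5 of which had the mark. EZH2ΔSET mice overlapped control mice 2 and 3. At Foxe1 (chr4:46343609-46346412), K27me3 covered 1184, 6001 and 3703 bp in control, 1195, 3745 and 4391 bp in EZH2ΔSET and 4338 to 6001 bp in the other 6 mice. Control and EZH2ΔSET mice overlapped, with the lowest mouse of each below all of the other 6.

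Foxn1, the thymic epithelial factor, Foxr1 and Foxs1 had neither mark in any mouse. Foxs1 was nearest to the edge of the window, with K27me3 4161 bp from its start in control mouse 2 and 93212 bp in control mouse 3.

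The mesenchymal Fox genes Foxf1, Foxc2 and Foxl1 lie within 43.6 kb on chromosome 8, and K27me3 there varied widely between mice of the same genotype. K27me3 covered 0%, 61.4% and 19.8% of the cluster with its windows in control, 0%, 0% and 22.8% in EZH2ΔSET and 10.7% to 45.6% in the other 6 mice. Control mouse 2 and the second library that stood apart were highest, and the remaining 10 mice were at 26.9% or less. K4me3 lay just upstream of Foxf1 and across Foxc2 in every mouse and never at Foxl1.

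**Figure D3:**
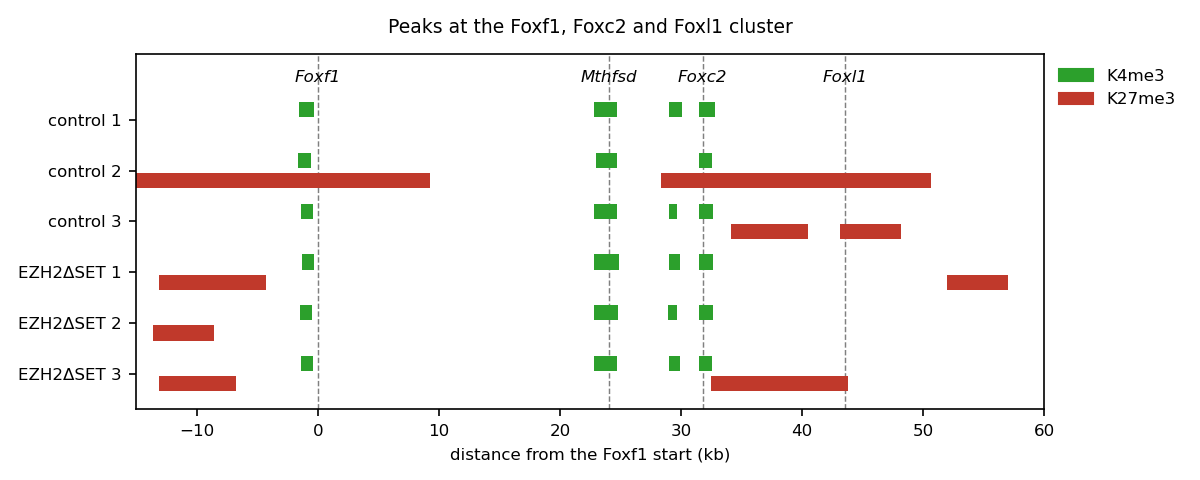
K4me3 (green) and K27me3 (red) peaks of the 3 control and 3 EZH2ΔSET mice (rows) along the Foxf1, Foxc2 and Foxl1 cluster (x axis, distance from the Foxf1 start in kb; dashed lines mark gene starts, including the neighbor Mthfsd). K27me3 ran across the Foxf1 start in control mouse 2 alone, and control mouse 1 had no K27me3 peak in the stretch shown.

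At Foxf1 (chr8:121084386-121088144), a hedgehog target in gut and lung mesenchyme, K27me3 covered 0, 6001 and 0 bp in control, 0 bp in each EZH2ΔSET mouse and 0 to 4888 bp in the other 6 mice. At Foxc2 (chr8:121116171-121118895), needed for lymphatic vessels, the values were 0, 6001 and 705 bp in control, 0, 0 and 2292 bp in EZH2ΔSET and 0 to 3337 bp in the other 6 mice. At Foxl1, a marker of subepithelial gut mesenchyme, they were 0, 6001 and 3393 bp in control, 0, 0 and 3223 bp in EZH2ΔSET and 0 to 6001 bp in the other 6 mice. Neither control nor EZH2ΔSET mice had K27me3 in all 3 mice at any of the 3 genes, and over the 6 mice of each Ezh2 status the mark was called at Foxf1 in 2 with intact and 2 with deleted Ezh2, at Foxc2 in 4 and 3 and at Foxl1 in 5 and 3. K4me3 at Foxf1 covered 1183, 1104 and 997 bp in control, 981, 955 and 1001 bp in EZH2ΔSET and 793 to 1338 bp in the other 6 mice. At Foxc2 it covered 2395, 1060 and 1814 bp in control, 2095, 1952 and 2056 bp in EZH2ΔSET and 1615 to 1865 bp in the other 6 mice. Both overlapped between control and EZH2ΔSET mice.

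A second cluster, Foxq1, Foxf2 and Foxc1 within 250.5 kb on chromosome 13, had K27me3 over 8.71% of its span in control mouse 1 and 49.8% in control mouse 2, with 48.8% in the second library that stood apart and 19.7% to 41.3% in the remaining 9 mice. Foxq1, known from hair and stomach surface cells, had K27me3 in 3 mice, control mouse 2 (6001 bp) and 2 of the other 6. Foxc1, a factor of eye and vessel mesenchyme, had it in control mouse 2 (6001 bp) and in 3 of the other 6 mice, at up to 3027 bp. K27me3 at Foxf2, a gut mesenchyme gene, covered 0, 6001 and 3244 bp in control, 3097, 0 and 3546 bp in EZH2ΔSET and 0 to 6001 bp in the other 6 mice. Foxf2 and Foxc1 lay in the same cluster, and K4me3 was called within 3 kb at Foxc1 and Foxq1 in every mouse and at Foxf2 in none. The nearest K4me3 peak to the Foxf2 start lay 3224 to 3565 bp away, just outside the window. No K4me3 peak reached the single Foxq1 start in any mouse, while the Foxc1 start was covered in all 12. K4me3 at Foxc1 covered 3291, 3328 and 3435 bp in control, 3578, 3667 and 3424 bp in EZH2ΔSET and 2922 to 3526 bp in the other 6 mice, with overlap. At Foxq1 it covered 2170, 2113 and 2029 bp in control, 2015, 1877 and 1868 bp in EZH2ΔSET and 1888 to 2036 bp in the other 6 mice, the EZH2ΔSET mice below the control mice. The widest region there was 2916 to 3224 bp, so that part of it lay outside the window and the length depends on where the window ends.

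The remaining members of variable K27me3, Foxi1 and Foxn4, had the mark in 2 mice each, the second library that stood apart with EZH2ΔSET mouse 2 and with control mouse 2, in that order. Foxd2 and Foxe3, 17.1 kb apart on chromosome 4, shared K27me3 over 56.1% to 100% of their span in 11 mice and had none in control mouse 1. K27me3 at Foxa2, Foxo6 and Foxp2 was called in control mouse 2 alone.

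Per mouse, K27me3 was called at 8, 23 and 16 Fox genes in control, 14, 14 and 16 in EZH2ΔSET and 14 to 21 in the other 6 mice. The control mice held both the lowest and the highest value. The share of Fox genes with K27me3, at a median of 39.0%, was above that of all genes in 12 of 12 mice, by 2.16 to 3.77 times, with a median of 3.02 times. Over the 10 mice without both libraries that stood apart the median was again 3.02 times. Other developmental families were as high: K27me3 was called at a median of 38.9% of 18 Sox genes and 58.3% of 12 T-box genes. No test was made of Fox against these families, so the excess over all genes is not particular to Fox genes on this evidence.

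K4me3 was called at 27, 26 and 27 Fox genes in control, 26, 25 and 27 in EZH2ΔSET and 24 to 27 in the other 6 mice. Both marks were called at 3, 12 and 7 Fox genes in control, 5, 4 and 7 in EZH2ΔSET and 5 to 10 in the other 6 mice. Fox genes with both marks exceeded the share of all genes in 12 of 12 mice, by a median of 4.57 times, while the K4me3 share was near that of all genes, by a median of 1.02 times.

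**Figure D4:**
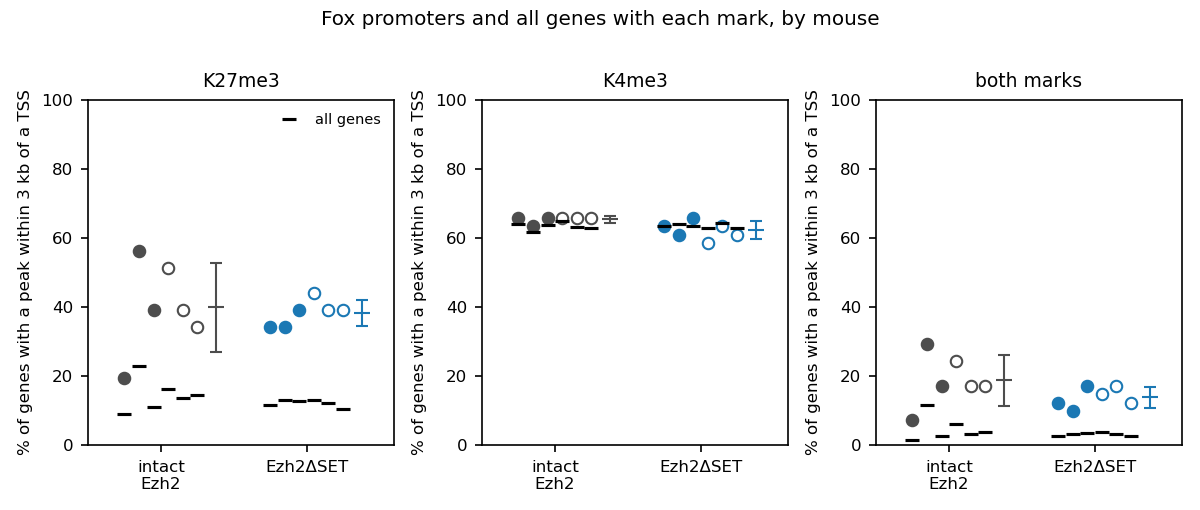
Percent of the 41 Fox genes (circles) and of 20807 protein-coding autosomal genes (black dashes) with K27me3, K4me3 or both within 3 kb of a TSS (y axis) in each mouse, by Ezh2 status (x axis); filled circles are control and EZH2ΔSET mice, open circles the other mice, and bars the mean and SD over 6 mice. Fox genes lay above all genes for K27me3 and for both marks in 12 of 12 mice.

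Whether the Ezh2 deletion changed how many Fox promoters carried a mark is the comparison the design implies. The number with K27me3 was 15.7 ± 7.51 in control and 14.7 ± 1.15 in EZH2ΔSET mice (mean ± SD, n = 3), a difference of -1 with a pooled SD of 5.37. The difference was 2.67 without control mouse 2 and -4.83 without control mouse 1, and with a K27me3 window from 100 kb upstream the means were 20 in control and 22 in EZH2ΔSET mice. Over all 12 mice it was 16.3 ± 5.32 with intact Ezh2 and 15.7 ± 1.51 with the deletion (n = 6 each). Loss of the SET domain in acinar cells was not accompanied by a detectable fall in the number of Fox promoters with K27me3 in these lists, where the direction rested on single control mice. For K4me3 the numbers were 26.7 ± 0.577 in control and 26 ± 1 in EZH2ΔSET mice, and 26.8 ± 0.408 with intact Ezh2 and 25.5 ± 1.05 with the deletion over all 12. The number with K4me3 ran from 26 to 27 in mice with intact Ezh2 and from 24 to 27 in those with the deletion. No p is given for these counts since the members were chosen with results known.

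Covered length was tested gene by gene over all genes, 6 mice with the Ezh2 deletion against 6 without, by an exact two-sided permutation test that relabeled Ezh2 status within control and EZH2ΔSET mice and within the other 6 mice. Its smallest possible p is 0.005. Of the 41 members, 24 had K27me3 and 27 had K4me3 in any mouse and were tested. For the Ezh2 deletion and K27me3, 0 of 24 had p at or below 0.05 (background 1.94%), the smallest p by this exact permutation test being 0.2, and 1 did without 1 of the other mice with intact Ezh2. Members in which a single mouse differed from the rest could not have reached 0.05. Foxa2, Foxo6 and Foxp2 had K27me3 in 1 mouse, and at Foxb1, Foxd1, Foxd4 and Foxi3 it covered the whole window in 11 mice. Over the 6 mice with the deletion, covered length was higher than in the 6 without at 13 members and lower at 11, with a median difference of 301 bp. The median over all genes tested was -428 bp, but 2315 of these 6923 genes had K27me3 in 1 mouse only. Control mouse 2, with intact Ezh2, had K27me3 at the most genes. Genes marked in that mouse alone are lower with the deletion by construction, so the medians are not comparable. For the Ezh2 deletion and K4me3, 5 of 27 had p at or below 0.05 (background 7.55%), 3 lower (background 0.966%) and 2 higher (background 6.58%). The 5 became 3 without EZH2ΔSET mouse 2 (background then 5.97%), 2 without EZH2ΔSET mouse 3 (5.09%), and 2 or 3 without 3 of the other 6 mice, 1 with intact Ezh2 and 2 with the deletion. None of these or of any gene passed Benjamini-Hochberg adjustment over 14175 genes, with a smallest adjusted p of 0.506 in the exact permutation test.

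The 3 members with less K4me3 over the 6 mice with the deletion at p of 0.05 or less were Foxi3, Foxd1 and Foxd2, of 11 members with a lower mean. All 3 had K27me3 in 11 or 12 mice, as did Foxa1, Foxb2 and Foxl2 among the 27 members tested. Both marks were called in some mouse at 13 of the 27, at Foxa2, Foxo6 and Foxp2 in control mouse 2 alone. At Foxi3 (chr6:70956531-70961066) K4me3 covered 1042, 1044 and 779 bp in control and 740, 0 and 501 bp in EZH2ΔSET mice. Over all mice it ran from 690 to 1044 bp with a median of 808 bp in the 6 with intact Ezh2, and from 0 to 740 bp with a median of 250.5 bp in the 6 with the deletion. Control and EZH2ΔSET mice did not overlap, and the 6 and 6 overlapped between 690 and 740 bp. The mean was 311 ± 349 bp with and 862 ± 147 bp without the Ezh2 deletion (SD, n = 6 each; exact permutation p = 0.005, adjusted p = 0.506), and leaving out each mouse in turn gave p of at most 0.015. At Foxd1 (chr13:98354242-98359305) K4me3 covered 700, 833 and 501 bp in control and 0, 0 and 780 bp in EZH2ΔSET mice. Over all mice it ran from 501 to 1669 bp with a median of 694.5 bp with intact Ezh2, and from 0 to 780 bp with a median of 0 bp with the deletion. A peak was called in 6 of 6 mice with intact Ezh2 and in 1 of 6 with the deletion. The means were 130 ± 318 and 816 ± 437 bp (exact permutation p = 0.015, adjusted p = 0.562). Within the 8 mice with many K27me3 peaks on chromosome X, Foxi3 was at 779 to 1044 bp in the 3 with intact Ezh2 and at 0 to 740 bp in the 5 with the deletion, and Foxd1 at 501 to 833 bp and 0 to 780 bp.

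At Foxd2 (chr4:114906282-114908873), printed above, K4me3 covered 1836, 2308 and 1875 bp in control and 1667, 1869 and 1585 bp in EZH2ΔSET mice. Over all mice it ran from 1725 to 2375 bp (median 1938 bp) with intact Ezh2 and from 1585 to 1869 bp (median 1749.5 bp) with the deletion. The highest values were those of both libraries that stood apart, and the exact permutation p of 0.04 (adjusted p = 0.656) became 0.16 without these mice. Leaving out each mouse in turn gave p up to 0.11, and at most 0.05 in 4 of 12 cases. Without both mice, p was 0.04 at Foxi3 and 0.03 at Foxd1. K4me3 regions at Foxi3 and Foxd1 were among the narrow ones, and the narrowest peak the lists hold is 501 bp, so a value of 0 there means that no region of that width was called. When each library was cut to the same number of its widest peaks, which drops narrow ones, p was 0.2 at Foxi3 and 0.5 at Foxd1, with differences of -482 bp against -550.5 bp and of -417 bp against -685.5 bp.

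**Figure D5:**
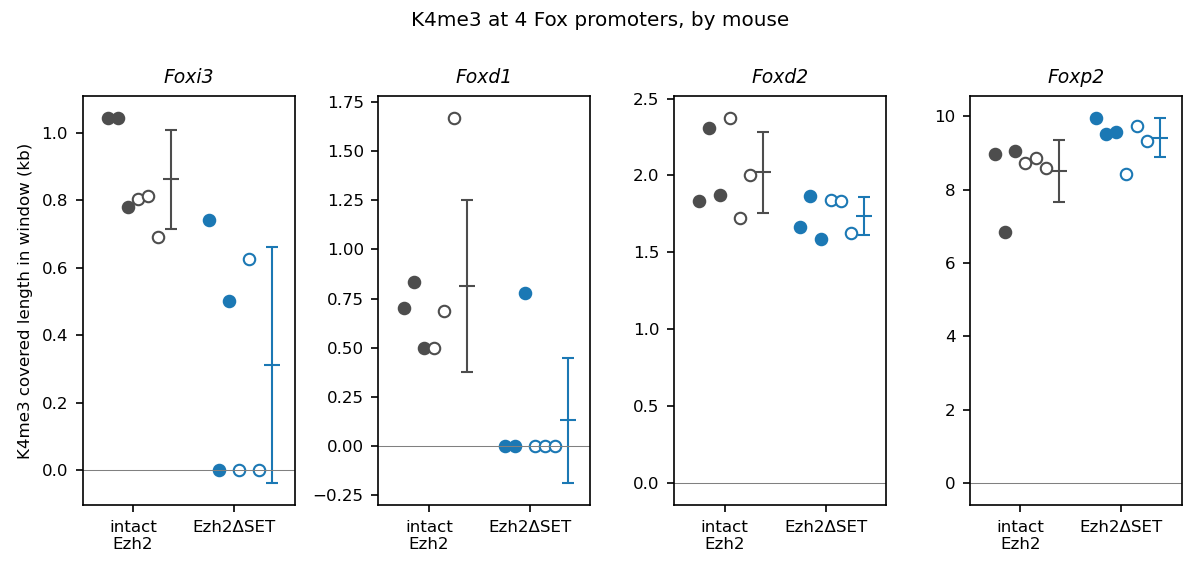
K4me3 covered length in kb (y axis, own scale per gene) in the promoter windows of Foxi3, Foxd1, Foxd2 and Foxp2 in each mouse, by Ezh2 status (x axis); filled circles are control and EZH2ΔSET mice, open circles the other mice, and bars the mean and SD over 6 mice. Foxd1 had no K4me3 in 5 of 6 mice with the Ezh2 deletion, and Foxp2 had 8419 bp or more in those 6 mice against 6834 to 9041 bp in the 6 with intact Ezh2.

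K4me3 was longer over the 6 mice with the deletion at Foxj2, a widely expressed member, and at Foxp2, known for neural circuits of vocal learning. At Foxj2 it covered 5204, 3596 and 4754 bp in control and 6594, 6435 and 6202 bp in EZH2ΔSET mice, which did not overlap. Over all mice it ran from 3596 to 6196 bp with intact Ezh2 and from 4819 to 6594 bp with the deletion, with overlap (exact permutation p = 0.045, adjusted p = 0.662). At Foxp2 it covered 8972, 6834 and 9041 bp in control and 9954, 9511 and 9561 bp in EZH2ΔSET mice, again without overlap. Over all mice it ran from 6834 to 9041 bp with intact Ezh2 and from 8419 to 9954 bp with the deletion (exact permutation p = 0.02, adjusted p = 0.587). Control mouse 2 was lowest at both. Leaving out a mouse in turn gave p up to 0.14 at Foxj2 and 0.085 at Foxp2. The differences of 1099 bp at Foxj2 and 912 bp at Foxp2 depended on the setting. They were 85.8 bp (exact permutation p = 0.325) and 387 bp (p = 0.355) around the 5′ end alone, and 544 bp (p = 0.005) and 156.5 bp (p = 0.86) with a window of 1 kb. With equal peak numbers they were 1205 bp (exact permutation p = 0.075) and 536.5 bp (p = 0.27). Without control mouse 2 the difference at Foxp2 was 550 bp (exact permutation p = 0.045).

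Between EZH2ΔSET and control, with 3 mice each, the smallest exact permutation p is 0.1, so members whose mice did not overlap are given as counts. For K27me3 there were 0 of 24 (background 2.64%). Without control mouse 2 there were 3 of the 21 members that still had K27me3, all higher in EZH2ΔSET mice and Foxd3 and Foxl2 among them, against 11.4% of all genes without overlap. Without control mouse 1 there was 1, Foxl1, lower in EZH2ΔSET mice (background then 6.67%), and without EZH2ΔSET mouse 1 there was also 1 (background then 4.81%).

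For K4me3, 5 of 27 separated EZH2ΔSET from control (background 11.2%): Foxj2, Foxj3 and Foxp2 higher and Foxi3 and Foxq1 lower. The K4me3 region at Foxq1 did not reach its start. At Foxj3 the EZH2ΔSET mice had 3104, 3127 and 3174 bp against 2877, 2860 and 3072 bp in control, with 2846 to 3285 bp in the other 6 mice. With fewer control mice the count was larger, as was that over all genes: it was 9 without control mouse 2 (background then 22.2%), 8 without control mouse 1 (20.4%) and 13 without control mouse 3 (26.8%). Without EZH2ΔSET mouse 3 it was 8 (18.7%).

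Genes of FoxO signaling and of the pancreatic transcription factor network were set beside the members. Of 31 genes around FoxO factors, from Insr, Igf1r, Irs1, Irs2, Pik3ca and Akt1 to targets such as Cdkn1b and Sod2, 29 had K4me3 in every mouse and the gluconeogenic genes Pck1 and G6pc in none. K27me3 was called at 0 to 4 of the 31 in a mouse and at 27 in no mouse, the exceptions being Igf1r, Irs1, Ccnd1 and Ccnd2. In K4me3 covered length, 5 of 29 had p at or below 0.05 for the Ezh2 deletion, all higher, Pdk1, Sirt1, Insr and Igf1r among them, against a background of 6.58% higher. All 15 pancreas transcription factors, among them Ptf1a, Bhlha15, Pdx1 and Gata6, had K4me3 in every mouse. K27me3 was called at 0 to 10 of the 15 in a mouse, at none of them in 10 or more mice and at 5 in no mouse. The 10 were in control mouse 2, the second library that stood apart had 5, and the other 10 mice had 0 or 1. Foxo1, Foxo3, Foxa2 and Foxa3 likewise had K4me3 in every mouse and K27me3 in 1 mouse or none, while Foxa1 had both marks in every mouse.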

How the data were processed

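ChIP-Seq was performed by the authors on whole pancreas with antibodies against K27me3 and K4me3. Per the labels and the study's methods, reads were checked with FastQC and aligned to mm10 with Bowtie2, and broad regions were called for every library by HOMER (findPeaks, histone setting) relative to input; tool versions are not given in the sources used here. The deposited files are 24 lists of peak positions, 1 per mouse and mark, in base pairs; their score column is 1 for every peak, and the 12 input samples have no list. Heights and read counts are not given, so depth is unknown and no interval from counts was made.

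Peaks were merged within a library and compared with GENCODE mouse release M21 on the same build using Python 3.11.15, numpy 2.4.6, pandas 2.3.3 and scipy 1.17.1. A gene was called with at least 1 bp of peak within 3 kb of a TSS, and covered length was the bases under a peak in the union of these windows. Genes with a covered base in any mouse were tested by exact two-sided permutation, 400 relabelings of Ezh2 status for 6 mice against 6, within control and EZH2ΔSET mice and within the other 6 mice, with Benjamini-Hochberg adjustment over 6923 genes for K27me3 and 14175 for K4me3. The code was tested on simulated peaks. The members, gene lists and alternatives were chosen with earlier results of these data known. Values in each control and EZH2ΔSET mouse are given for the FoxA genes, Foxo1, Foxo3, Foxm1 and Foxp1 and the genes of 2 clusters. They are also given for members without overlap between EZH2ΔSET and control or at p of 0.05 or less by Ezh2 status. The genes of the 5 longest stretches under both marks were included as well. The range over the other 6 mice goes with these values. At Foxi3, Foxd1, Foxd2, Foxj2 and Foxp2 it is replaced by ranges over all mice by Ezh2 status. Foxb1 was first by the rule for sequences in its class. Replicates are labeled as biological replicates. Comparisons of 6 mice by a further part of their genotype, and 1 member by name, are not reported here. Values at Foxb2, Foxe1, Foxi2 and Foxl2 are shown by choice, after they were seen. Alternatives were windows of 1 kb, the 5′ end alone, an overlap of 500 bp, equal peak numbers, a K27me3 window from 100 kb upstream, each mouse left out, the replicate number as a block and, added after seeing the data, both libraries that stood apart left out.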

Additional observations from a re-analysis of the deposited data

How the results depend on the processing

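The cause of the changes below was not tested unless the setting itself shows it. With a window of 1 kb, the mean number of Fox promoters with K27me3 was 13 in control and 13 in EZH2ΔSET mice. With K4me3 it was 26.3 in control and 24.3 in EZH2ΔSET mice, a difference of -2. With equal numbers of the widest peaks, which drops narrow peaks, K4me3 was at 25.3 promoters in control and 24 in EZH2ΔSET mice. Both marks were then at 6 promoters in control and 3.33 in EZH2ΔSET mice. A K27me3 window from 100 kb upstream gave K27me3 at 20 promoters in control and 22 in EZH2ΔSET mice and both marks at 9.67 and 10, so that EZH2ΔSET mice were above control mice in both.

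For covered length, members with K4me3 at p of 0.05 or less for the Ezh2 deletion numbered 3 with the 5′ end alone (7% of all genes) and 2 with equal peak numbers (7.43%), where 3 were without overlap between EZH2ΔSET and control (10.9%). Without both libraries that stood apart, a setting chosen after seeing the data, 3 of 20 members were without overlap in K27me3 (12.5% of all genes) and 9 of 27 in K4me3 (22.5%) between EZH2ΔSET and control, and 2 of 20 had p of 0.05 or less for the Ezh2 deletion in K27me3 (4.98%). Leaving out each mouse in turn gave 0 to 3 members without overlap in K27me3 and 7 to 13 in K4me3 between EZH2ΔSET and control, where fewer mice overlap less by construction and the share of all genes was 4.81% to 11.4% and 16.6% to 26.8%. At p of 0.05 or less there were 0 to 1 in K27me3 (1.7% to 3.86% of all genes) and 2 to 7 in K4me3 (4.85% to 11.1%). The difference in promoters with K27me3, EZH2ΔSET minus control, ran from -4.83 without control mouse 1 to 2.67 without control mouse 2.

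Replicate numbers did not pair the mice: deviations of same-numbered mice correlated between -0.367 and 0.227 in K27me3 and between -0.714 and 0.549 in K4me3, where the 6 pairs of mice numbered 3 were all positive (0.0616 to 0.498) and those numbered 1 and 2 were not. With the replicate number as a block, where 64 relabelings allow a smallest p of 0.0312, 0 members had p of 0.05 or less in K27me3 (0.607% of all genes) and 2 in K4me3 (5.5%) for the Ezh2 deletion. The 2 were Foxi3 and Foxa3, while in the same exact permutation test Foxd1, Foxd2 and Foxp2 had p of 0.0625 and Foxj2 0.0938. The block left the size of each difference as it was, and the differences in promoter numbers were the same. Lists without heights limit every value to presence and width.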
